A study of Rattus norvegicus with 20 samples.

Results

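Sycp3, Piwil2, Tex101, Rhox9, Cox7b2, Cox6b2, Rpl39l1 and Tsx are 8 rat genes described here across 20 arrays of embryonic testis. All but Tsx are genes of the germline or of testis-specific protein isoforms, and Tsx is a testis gene not assigned to a cell type here. The 8 genes were chosen by their stage differences in vehicle testes, above all between embryonic days 14 and 16 (E14 and E16), so those differences are given as a description with no test. Values of the vinclozolin-exposed arrays were also known when the genes were chosen, so the tests of stage differences in exposed testes are no independent evidence of the choice. Every probe set annotated to the 8 symbols was taken, which gave 12 of the 31042 probe sets without controls. Of these, 10 were tested, as were 22526 in all, because they reached the 40th percentile of the array on at least 2 arrays. Rhox9 had 5 probe sets, of which 3 were tested, and the other genes had 1 each.

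RNA came from testes of Sprague-Dawley rat embryos, with 2 arrays in each of 10 groups. Dams were injected every day from E8 to E14 with DMSO (vehicle) or with vinclozolin at 100 mg/kg/day, and embryos were taken at E13, E14 and E16. Vinclozolin is a fungicide whose metabolites block the androgen receptor. E13 embryos were therefore collected before the injections ended, and E16 embryos after them. In the culture experiments, E13 gonads with the mesonephros attached spent 3 days in medium containing vinclozolin (50 µM) against DMSO, or flutamide, an antiandrogen drug (0.5 µM), against ethanol. The opposite gonad of the same embryo got the vehicle, and the testis was freed of the mesonephros before RNA was taken. The main fit compared group means without this pairing, so the culture p-values and intervals are unpaired. All groups were labelled male from a PCR for Sry. Replicates are called biological in the labels, which do not tell single animals from pools. The p-values here cover only array-to-array spread, which may be technical.

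In the fetal testis, primordial germ cells settle among the Sertoli cells, stop dividing as prospermatogonia and begin to express germline genes, while meiosis itself waits until after birth. Sycp3 encodes an axial element protein of the synaptonemal complex, which holds paired chromosomes together in meiosis. Piwil2 encodes a PIWI protein that binds piRNAs and silences transposons, and Tex101 a surface glycoprotein of germ cells. Rhox9 is an X-linked homeobox gene of the reproductive Rhox cluster. Cox7b2 and Cox6b2 encode testis isoforms of subunits of cytochrome c oxidase, the last complex of the respiratory chain, and Rpl39l1 encodes a relative of ribosomal protein L39. Tsx is a testis gene of the X inactivation centre, next to Xist.

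The 250 bases before the annotated start are shown for the 4 genes whose vehicle levels differed most between E14 and E16. They are taken from RefSeq (GRCr8) on the strand of the gene: Sycp3 at chr7:24761226-24761475 (plus strand), Cox7b2 at chr14:37046831-37047080 (plus), Rpl39l1 at chr10:5966622-5966871 (minus) and Tsx at chrX:72492897-72493146 (plus). Capitals mark matches, on either strand, to 1 of 5 short motifs.
Sycp3: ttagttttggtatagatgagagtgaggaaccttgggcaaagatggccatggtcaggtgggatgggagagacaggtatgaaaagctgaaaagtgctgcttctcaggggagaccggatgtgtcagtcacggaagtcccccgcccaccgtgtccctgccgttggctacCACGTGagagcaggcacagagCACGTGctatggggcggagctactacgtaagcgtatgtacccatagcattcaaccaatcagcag
Cox7b2: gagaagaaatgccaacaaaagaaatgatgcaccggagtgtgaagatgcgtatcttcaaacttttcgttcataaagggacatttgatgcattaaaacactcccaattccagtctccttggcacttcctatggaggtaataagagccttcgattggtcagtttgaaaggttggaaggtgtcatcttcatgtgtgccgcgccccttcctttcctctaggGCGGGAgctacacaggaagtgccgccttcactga
Rpl39l1: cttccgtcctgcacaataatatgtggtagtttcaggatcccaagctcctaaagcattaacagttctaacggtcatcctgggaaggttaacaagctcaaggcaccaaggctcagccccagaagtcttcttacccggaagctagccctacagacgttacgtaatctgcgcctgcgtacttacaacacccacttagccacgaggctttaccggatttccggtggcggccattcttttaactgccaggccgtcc
Tsx: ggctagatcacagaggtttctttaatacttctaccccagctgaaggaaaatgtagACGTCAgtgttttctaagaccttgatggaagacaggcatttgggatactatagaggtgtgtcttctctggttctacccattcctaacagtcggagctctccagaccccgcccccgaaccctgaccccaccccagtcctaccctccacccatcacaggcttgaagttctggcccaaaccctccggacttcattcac

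The motifs were the E-box CACGTG, the E2F-type TCCCGC, the cAMP-response-type TGACGT, the NR5A-type AAGGTCA and the androgen receptor type TGTTCT, read in a window of 300 bases that adds the first 50 bases of the gene. Sycp3 held CACGTG, which reads the same on both strands, 85 and 64 bases before its start (-85 and -64). That motif occurred in 6.42% of the 33469 RefSeq promoter windows. Cox7b2 held TCCCGC on the opposite strand at -34, and Sycp3 and Rpl39l1 held it at 31 and at -3, outside or across the end of the letters shown. It occurred in 18.7% of windows. Tsx held TGACGT on the opposite strand at -195 (7.94% of windows), and Rhox9 held AAGGTCA at -17 (4.61%). TGTTCT, present in 20.7% of windows, was in none of the 7 windows found for the 8 genes, and Tex101 and Cox6b2 held none of the 5. No motif match overlapped another. The 7 windows held 6 to 15 CpG dinucleotides, against a median of 7 over all windows. These matches describe letters and not binding.

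The genes lie on different chromosomes of GRCr8 except where named together. Tsx (chrX:72493147-72503653) and Xist are 37100 bases apart, and Rhox9 (chrX:121507522-121510373) lies elsewhere on the X. Tex101 (chr1:89382974-89387340) and Cox6b2 (chr1:78122871-78124096) share chromosome 1. Piwil2 lies at chr15:51841104-51907729. Of the Rhox9 probe sets, 3 are annotated to Rhox9l1 as well, so their signal cannot be given to 1 gene.

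Some arrays stood apart from their group before any comparison. Amh, the Sertoli cell hormone that regresses the female ducts, read 106.0 and 372.4 on the E13 vehicle and exposed arrays numbered 1, against 1484.7 and 1102.2 on those numbered 2. The E14 vehicle array numbered 1 also stood apart, with Amh at 1553.9 against 5697.9 on its pair, a summed Sertoli cell marker intensity of 8747 against 18791, mesonephros markers at 2117 against 959 and erythroid markers at 4181 against 1077. It enters each E14 difference that uses vehicle testes. The E16 vehicle array numbered 1 had erythroid markers at 9173 against 2812 on its pair and fetal Leydig cell markers at 14401 against 22496. Its Sertoli cell and mesonephros sums lay closer, at 12199 against 14061 and 809 against 772. That array enters each E16 difference that uses vehicle testes. Xist, the RNA that coats the inactive X of female cells, read 758.6 and 896.0 on the same E13 arrays numbered 1 and 20.4 and 17.9 on the others. It read 32.0 to 489.9 on the E14 arrays and 2.4 to 16.6 on the E16 arrays, although the Y-linked Eif2s3y read at least 668.3 on all 20. In culture Xist read 5.2 and 5.4 with DMSO and 5.1 and 112.8 with vinclozolin, but 168.2 and 203.0 with ethanol and 211.9 and 194.4 with flutamide. Its part in the culture values was not tested. The 10 tested probe sets were lower on array 1 for 8 in E13 vehicle, 9 in E13 vinclozolin, 9 in E14 vehicle and 9 in E16 vehicle, with median differences of -0.58, -0.29, -0.59 and -0.74 (log2). Over all tested probe sets the share lower on array 1 was 46.7% to 53% in those groups. In the exposed E14 and E16 groups it was 4 of 10 each. The part of these arrays in the results was not tested beyond leaving each of them out. Of the Sertoli cell markers 13 of 20 were tested, and all 8 markers of fetal Leydig cells, the androgen-making cells.

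Levels are MAS5 signal intensities, scaled within each experiment, and are compared between arrays and not between probe sets. Differences are on the log2(intensity + 16) scale, which understates those of low values. For Sycp3, Cox7b2, Rpl39l1, Tsx and Cox6b2 the adjusted p of each rise in exposed testes is given as a description. Those arrays were known when the genes were chosen, so it is no support for the rise.

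Sycp3 and Tsx had the largest differences between E14 and E16 in vehicle testes, 3.23 and 3.07, which lie within their standard errors of each other. The Sycp3 intensity in vehicle testes was 57.5 and 149.1 at E13, 52.5 and 84.1 at E14, and 540.2 and 1065.2 at E16. In exposed testes it was 74.6 and 167.4, then 66.4 and 82.9, then 713.8 and 617.3. All 4 E16 arrays stood above all 8 earlier arrays, and E13 and E14 overlapped. The Sycp3 difference of E16 minus E14 in vehicle testes had an SE of 0.46 and was 9.36-fold, and E14 minus E13 was -0.41 (SE 0.46). In the exposed testes Sycp3 rose by 2.91 (SE 0.46, 7.53-fold, limma, Benjamini-Hochberg adjusted p = 0.000366).

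Cox7b2 came closest to an onset, being under the 40th percentile of the array before E16 and over it at E16. It read 20.4 and 31.2 at E13, 22.3 and 29.0 at E14, and 195.9 and 330.4 at E16 in vehicle testes. The exposed testes read 24.7 and 26.2, then 35.9 and 23.1, then 225.8 and 227.5. Only the exposed E14 array at 35.9 reached that percentile before E16. The vehicle difference from E14 to E16 was 2.71 (SE 0.28), or 2.29 when counted from the 40th percentile of the E14 arrays, and that from E13 to E14 was 0.00 (SE 0.28). In exposed testes Cox7b2 rose by 2.43 (SE 0.28, 5.39-fold, limma adjusted p = 4.34e-05).

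Rpl39l1 was well above the 40th percentile from E13 on, so its change was a rise and not an onset. Vehicle testes read 372.1 and 908.5 at E13, 364.2 and 880.0 at E14, and 2667.1 and 3999.1 at E16. Exposed testes read 474.5 and 779.3, 901.1 and 659.0, then 3370.4 and 2923.9. E13 and E14 overlapped in both, and E16 lay above both. The vehicle difference from E14 to E16 was 2.49 (SE 0.44), and the exposed testes rose by 2.0 (SE 0.44, 4.01-fold, limma adjusted p = 0.00355).

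Tsx differed at both steps. It read 51.8 and 175.4 at E13, 236.8 and 523.1 at E14, and 2907.6 and 3266.8 at E16 in vehicle testes. In exposed testes it read 62.4 and 228.4, 499.7 and 384.2, then 2866.3 and 2789.9. No array of a later stage fell below one of an earlier stage under the same treatment. The vehicle differences were 1.70 (SE 0.45) from E13 to E14 and 3.07 (SE 0.45) from E14 to E16. In exposed testes Tsx rose by 1.71 (SE 0.45, limma adjusted p = 0.0178) and then by 2.65 (SE 0.45, adjusted p = 0.00069). The first step was smaller without both E13 arrays numbered 1, at 0.95 in vehicle and 0.89 in exposed testes (adjusted p = 0.0731). The call was also lost without exposed array 1 of E13 (0.89, adjusted p = 0.215) or of E14 (1.53, adjusted p = 0.146) and with only the in utero arrays (adjusted p = 0.0666). Over all its alternatives the adjusted p ranged from 0.0116 to 0.215.

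Cox6b2 was above the 40th percentile on all 20 arrays. It read 376.6 and 371.7 at E13, 751.6 and 685.2 at E14, and 776.0 and 1425.8 at E16, while exposed testes read 338.0 and 418.8, 742.7 and 561.8, then 1305.7 and 1026.8. The vehicle differences were 0.91 (SE 0.23) and 0.54 (SE 0.23). Without the E16 vehicle array numbered 1 the second was 0.97, and without that numbered 2 it was 0.11, so the order of the steps rests on 1 array. In exposed testes Cox6b2 rose by 0.75 (SE 0.23, limma adjusted p = 0.0332) and by 0.83 (SE 0.23, adjusted p = 0.0134). The first call was lost in 7 of 13 alternatives. It was lost at the same difference without the variance trend (adjusted p = 0.0519), with the replicate block (0.0513) and with only the in utero arrays (0.0893). It was also lost without exposed array 1 of E14 (0.56, adjusted p = 0.253), without exposed array 1 (0.61, adjusted p = 0.183) or 2 (0.90, adjusted p = 0.0665) of E13, and without both E13 arrays numbered 1 (0.61, adjusted p = 0.181). The second was lost without the exposed E16 array numbered 1 (0.66, adjusted p = 0.141) or the exposed E14 array numbered 2 (0.63, adjusted p = 0.0967), and its adjusted p ranged from 0.0107 to 0.141 over the alternatives.

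**Figure D1:**
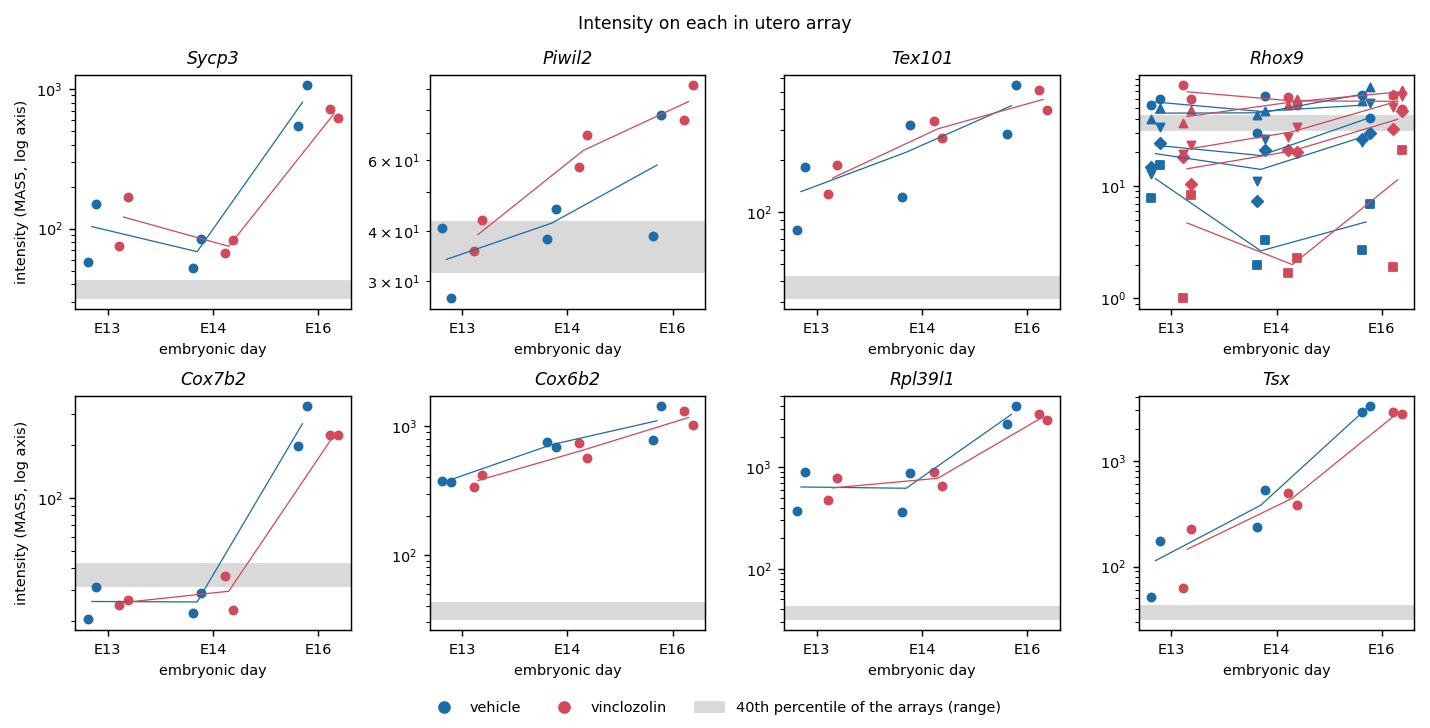
Intensity (MAS5, log axis) of each gene's probe sets against embryonic day, with 1 point per in utero array, vehicle in blue, vinclozolin in red, lines through the group means and a grey band for the range of the arrays' 40th percentiles. For Rhox9 the 5 marker shapes are its 5 probe sets. Sycp3, Cox7b2, Rpl39l1 and Tsx read higher on all 4 E16 arrays than on any earlier array.

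The differences of the other 3 genes did not pass the test in exposed testes. Tex101 read 79.3 and 184.4 at E13, 123.3 and 323.5 at E14, and 285.4 and 547.7 at E16 in vehicle testes, with overlap between neighbouring stages and differences of 0.65 and 0.92 (SE 0.44 each). Its exposed arrays read 128.1 and 188.2, 340.0 and 271.1, then 514.4 and 390.9, and did not overlap between stages. The exposed differences were 0.90 (95% interval -0.02 to 1.82, limma adjusted p = 0.171) and 0.54 (-0.38 to 1.46, adjusted p = 0.39). Piwil2 lay near the 40th percentile, between 27.2 and 92.2 in utero. Its highest vehicle array was 77.9 at E16, with the other E16 vehicle array at 38.8, within the range of E13 and E14. From E14 to E16 the exposed difference was 0.33 (-0.24 to 0.90, adjusted p = 0.396).

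The Rhox9 probe sets did not move alike. The 5 are lettered a to e, of which a, b and c are annotated to Rhox9l1 as well and c and d were not tested. Probe set e, the tested one annotated to Rhox9 alone, read 12.8 to 33.5 on the E13 and 11.2 to 33.7 on the E14 arrays. It read 24.9 and 54.6 on the E16 vehicle arrays and 50.7 and 63.7 on the exposed ones. Its exposed difference from E14 to E16 was 0.65 (-0.05 to 1.35, limma adjusted p = 0.16), or 0.45 when counted from the 40th percentile. Of the probe sets shared with Rhox9l1, b gave 0.23 (-0.31 to 0.78) and a gave -0.02 (-0.63 to 0.60). Of the untested pair, c reached the 40th percentile on 0 arrays and d on 1. Probe set d, also annotated to Rhox9 alone, read 7.4 to 24.2 on the E13 and E14 arrays. At E16 it read 26.3 to 46.4, all low values.

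In exposed testes, 5 of the 10 member probe sets rose from E14 to E16 and 0 fell, where 13.2% of all tested probe sets rose and 26.8% changed. These members were chosen with those arrays known, so the count is a description. From E13 to E14, 2 rose and 0 fell, where 7.71% of all rose and 16.2% changed. Without both E13 arrays numbered 1, 0 of 10 passed at that step. The median member difference was 0.74 from E14 to E16 and 0.33 from E13 to E14, beside -0.01 and 0.06 over all tested. Both E16 arrays lay above both E14 arrays for 9 of 10 in exposed testes, where 30.9% of all tested did, and for 6 of 10 in vehicle testes, where 24.2% did. Both E14 arrays lay above both E13 arrays for 6 of 10 in exposed testes (30.4% of all tested) and 2 of 10 in vehicle testes (26.4%). Rhox9 e is among the 9 and passed the filter on low signal through E16, being over the 40th percentile on 3 arrays there and 1 at E13. Nothing is read from these counts, since the choice of members and the filter bear on them. The rises of Sycp3, Cox7b2, Rpl39l1 and Tsx from E14 to E16 in exposed testes kept their direction under all 12 alternatives. These reuse the same arrays and add no support. Xist was lower at E16 than at E14 on these arrays, as given above, and its part was not tested. Fewer or more cells of a type and a changed amount of RNA per cell cannot be told apart in whole testes.

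**Figure D2:**
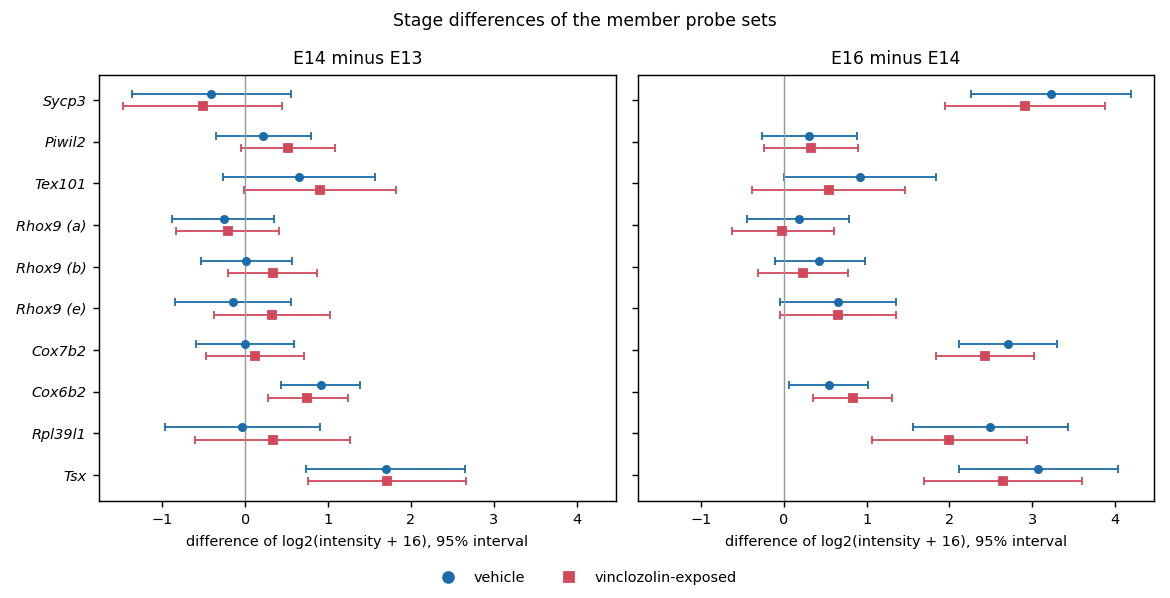
Difference of log2(intensity + 16) between neighbouring stages for the 10 tested probe sets, vehicle (blue circles) and vinclozolin-exposed testes (red squares), with 95% intervals from the fit. From E14 to E16, Sycp3, Cox7b2, Rpl39l1 and Tsx lie between 2.0 and 3.23, and Piwil2 and Rhox9 lie between -0.02 and 0.66. Rhox9 a and b are also annotated to Rhox9l1, and e to Rhox9 alone.

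Other genes of the same processes were taken from lists of known function. Of the 25 genes of synapsis and meiotic recombination, 11 were on the array and 7 besides Sycp3 were tested. In exposed testes 4 of the 7 rose from E14 to E16 and 0 fell, with a median of 1.02. Smc1b, a meiotic cohesin subunit, rose by 1.92 (SE 0.38, limma adjusted p = 0.0018), and Sycp2, the partner of Sycp3 in the axial element, by 1.49 (SE 0.35, adjusted p = 0.00536). Mnd1, a recombination cofactor, rose by 1.02 and Tex15 by 1.95 (adjusted p = 0.00355 and 0.0157). Over all 11677 genes with a tested probe set, 15.4% rose and 18.3% fell, with a median of -0.04. Sycp1, the transverse filament of the complex, read 0.2 to 6.8 at E13 and E14 and 15.3 to 32.8 at E16, all low values.

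Of 20 piRNA pathway genes, 7 were on the array and 5 besides Piwil2 were tested. Asz1 rose by 1.98 (SE 0.47, limma adjusted p = 0.006) and Tdrd7, a tudor protein of germ granules, by 0.67 (SE 0.18, adjusted p = 0.0127). The other 3 did not pass and 0 fell. Of 27 testis isoforms of widely used proteins, 17 were on the array and 8 were tested, 5 of them besides the members. The others on the array did not pass the filter on low signal. Of the 5, 3 rose, where 15.4% of all 11677 genes did: Slc25a31, a testis ADP/ATP carrier, by 2.11 (SE 0.33, adjusted p = 0.000356), Taf7l by 1.10 (adjusted p = 0.0385) and Tbpl1 by 0.51 (adjusted p = 0.00737).

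Of the 10 tested genes for the ubiquitous versions of such proteins, 4 rose and 0 fell over the same step, with a median of 0.35. Among all 11677 genes 15.4% rose and 18.3% fell, with a median of -0.04. Cox7b, the widely expressed counterpart of Cox7b2, rose by 0.67 (SE 0.16, limma adjusted p = 0.00651), and Cox6b1, that of Cox6b2, by 0.37 (SE 0.12, adjusted p = 0.0303). Rpl39, the counterpart of Rpl39l1, differed by 1.23 (SE 0.55, adjusted p = 0.106) and ranged from 66.6 to 237.3 within the E14 vehicle pair alone. Whether an isoform and its counterpart changed by different amounts was not tested. Around Tsx, 0 of the 4 other tested genes of the X inactivation centre passed in either direction. Rhox5, the other tested Rhox gene, differed by 0.58 (SE 0.38, adjusted p = 0.278).

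Markers of the cells of the testis were read over the same step, where 15.4% of all 11677 genes rose and 18.3% fell in exposed testes. Of the primordial germ cell markers, 10 of 20 were tested. Ifitm3 alone rose in exposed testes (1.02, SE 0.20, limma adjusted p = 0.00158), 0 fell, and 9 of the 10 gave values below 0. Their summed intensity was 2867 to 3552 in exposed E14 testes and 3993 to 4234 at E16. All 8 Leydig cell markers rose, with a median of 3.92 and sums of 1243 to 1425 and then 23422 to 25132. Of the 13 Sertoli cell markers 2 rose and 5 fell, and sums went from 17469 to 20900 at E14 to 13125 to 13713 at E16. Sums of the 7 mesonephros markers were 975 to 1282 and 589 to 685. The part of these cell types in the members' differences was not tested.

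Positions of the members in culture were set beside those of vehicle testes. E13 testes kept for 3 days reach the nominal age of E16, but the 3 experiments were scaled separately, so positions are percentiles within the array and are compared with no test. Culture and experiment cannot be told apart. In the DMSO culture both arrays lay below both E16 vehicle arrays for 9 of 10 member probe sets and above for 0, where 31.3% and 30.2% of all tested probe sets did. In the ethanol culture this held for 8 below and 0 above, where 34.5% and 36.2% did. With all arrays rescaled to 1 trimmed mean, the ethanol culture lay below E16 for 6 of 10 (27.1% of all tested). The members were chosen for high values on these E16 arrays, so nothing is read from the counts against E16.

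Sycp3 lay at percentiles 41.9 and 45.9 in DMSO culture and 49.9 and 58.8 in ethanol culture, against 87.4 and 94.0 in E16 vehicle testes and 44.5 and 53.5 at E14. Its intensity was 55.0 and 43.7 in DMSO and 40.5 and 60.3 in ethanol. Cox7b2 lay at 23.0 and 38.6 in DMSO and 43.9 and 44.8 in ethanol culture, against 71.9 and 80.5 at E16. Sycp3 overlapped its E14 range in both cultures and lay below its E13 range of 47.9 to 66.4 in DMSO. Cox7b2 overlapped its E13 range of 29.7 to 39.7 and its E14 range in DMSO and lay above both in ethanol.

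Rpl39l1 differed between the cultures. It lay at 54.7 and 67.1 in DMSO culture, below its E13 range of 81.4 to 92.7, and at 82.4 and 82.7 in ethanol culture, within that range. At E16 it lay at 98.0 and 98.9. Cox6b2 lay below its E13 position in both, at 77.9 and 80.6 in DMSO and 77.7 and 78.4 in ethanol against 81.6 and 81.7 at E13.

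Tsx alone lay above its E13 range in both cultures, and Cox7b2 did so in ethanol only. The Tsx percentiles were 88.4 and 89.9 in DMSO culture and 86.6 and 88.3 in ethanol culture. They lay above the Tsx E13 range of 46.1 to 69.1 and below 98.3 and 98.5 at E16. The Tsx E14 range of 72.8 to 86.6 lay below the DMSO arrays and touched the ethanol ones. Piwil2 lay at 19.0 and 21.5 in DMSO culture, below 37.0 and 42.0 at E13, and Tex101 at 13.4 and 39.4, below 53.5 and 69.9. In ethanol culture Piwil2 lay at 34.2 and 35.2, below E13, and Tex101 at 50.8 and 57.4, overlapping E13. With all arrays rescaled to 1 trimmed mean, Piwil2 in ethanol lay above E13, at 41.2 to 43.8 against 27.2 to 40.8. Against E16, Rhox9 a overlapped in both cultures, b overlapped in ethanol and lay below in DMSO, and e lay below in both. The untested pair of Rhox9 probe sets stayed at or under percentile 35.0 in both vehicle cultures.

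Against E13 vehicle testes, the DMSO culture was above for 1 member probe set (Tsx) and below for 7 (28.0% and 32.1% of all tested), and the ethanol culture above for 2 (Cox7b2 and Tsx) and below for 3 (33.6% and 34.4%). Against E14 the counts were 1 above and 6 below in DMSO (33.0% and 32.6%) and 1 above and 3 below in ethanol (36.3% and 34.7%). With all arrays rescaled to 1 trimmed mean, the ethanol culture was below E13 for 1 member probe set (28.1% of all tested) and above E14 for 2 (40.6%). Leydig cell marker sums were 9419 to 9480 in DMSO and 13749 to 14392 in ethanol culture, against 976 to 1028 in E13 and 14401 to 22496 in E16 vehicle testes. Germ cell marker sums were 2912 to 2973 and 2672 to 2741, against 1423 to 1841 at E13, 2950 to 3142 at E14 and 4031 to 4352 at E16. Yet 9 of the 10 markers gave values below 0 from E14 to E16 in exposed testes, and 6 of 10 did in vehicle testes. In exposed testes Ifitm3 alone rose past the threshold, so the sums do not stand for the markers as a set. The 3' to 5' signal ratio of beta-actin, which goes up as RNA degrades, ran from 1.73 to 3.47 in utero and from 2.67 to 3.9 for the cultures with vinclozolin and DMSO, but from 9.08 to 11.1 for those with flutamide and ethanol. The part of cell types, RNA quality and scaling in these positions was not tested.

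**Figure D3:**
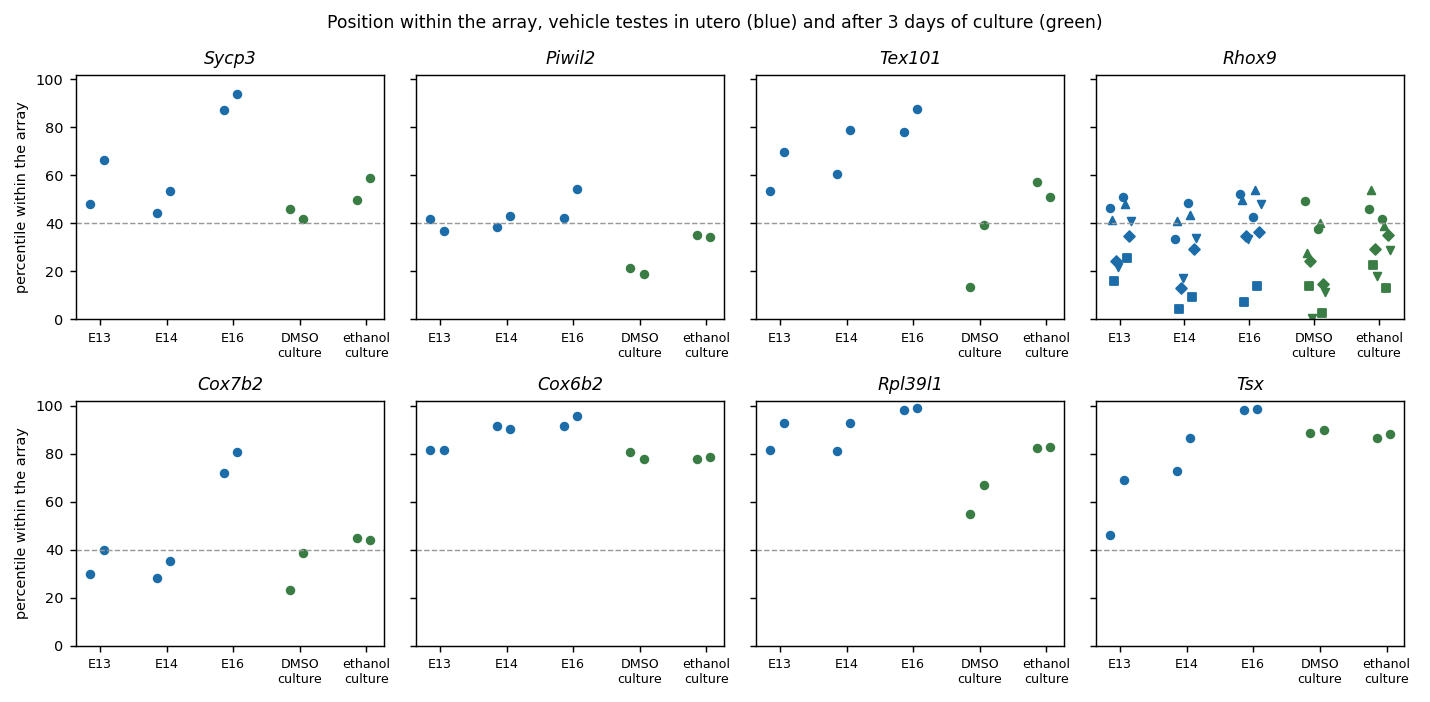
Percentile within the array of each gene's probe sets on the vehicle arrays, in utero at E13, E14 and E16 (blue) and after 3 days of culture with DMSO or ethanol (green), with 1 point per array and a dashed line at the 40th percentile. The cultured Sycp3 and Cox7b2 arrays lie at or under 58.8, below the E16 arrays at 71.9 or more, and the cultured Tsx arrays lie between 86.6 and 89.9.

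No member responded to an antiandrogen past the threshold. With limma and Benjamini-Hochberg adjustment, 0 of 10 member probe sets passed for vinclozolin minus vehicle at E13, E14 or E16, where 0%, 0.00444% and 0% of all tested did. The same held for the mean effect over the stages, for vinclozolin in culture and for flutamide in culture (0% of all tested each). The lowest adjusted p was 0.8, for Piwil2 at E16. The in utero comparisons share the vehicle arrays that served to choose the members. At an unadjusted p under 0.05 there were 0 of 10 at each of the 3 stages (1.78%, 5.50% and 6.69% of all), 1 for the mean effect (4.10%), 1 for vinclozolin in culture (2.71%) and 0 for flutamide (2.19%).

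Both of those were Piwil2. It read 16.4 and 12.7 with DMSO and 26.9 and 38.0 with vinclozolin in culture, a difference of 0.66 (95% interval 0.09 to 1.23, limma adjusted p = 1). All 4 values lay below the 40th percentile of their arrays. Averaged over the in utero stages, Piwil2 differed by 0.36 (0.03 to 0.69, limma adjusted p = 0.998). Exposed arrays read 57.6 and 69.3 against 38.2 and 45.5 at E14, without overlap, and overlapped at E13 and E16. With flutamide Piwil2 read 23.9 and 35.4 against 22.3 and 21.0 with ethanol, a difference of 0.27 (-0.30 to 0.84).

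For the 4 genes of steepest rise, the intervals leave room for sizeable effects. At E16, vinclozolin minus vehicle was -0.19 for Sycp3 (-1.15 to 0.77), -0.16 for Cox7b2 (-0.75 to 0.43), -0.06 for Rpl39l1 (-0.99 to 0.88) and -0.12 for Tsx (-1.08 to 0.83). The Tsx arrays did not overlap there, the exposed pair being the lower. In vinclozolin culture the differences were 0.13 for Sycp3 (-0.84 to 1.09), 0.10 for Cox7b2 (-0.49 to 0.69), 0.78 for Rpl39l1 (-0.16 to 1.72) and 0.01 for Tsx (-0.95 to 0.96). In flutamide culture they were 0.20 (-0.76 to 1.16), -0.11 (-0.70 to 0.48), 0.09 (-0.85 to 1.02) and 0.08 (-0.87 to 1.04). The compounds differed in dose, vehicle and experiment, so their values stand side by side with no comparison.

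The antiandrogen and vehicle arrays did not overlap, in either direction, for 0 of 10 member probe sets at E13 (24.4% of all tested), 3 at E14 (27.1%) and 1 at E16 (39.2%), and for 3 in vinclozolin culture (28.8%) and 4 in flutamide culture (38.1%). At E14 the 3 were Piwil2 and Rhox9 b and e, all higher in exposed testes, and the E14 vehicle array numbered 1, lower on 9 of 10, enters each of these. At E16 it was Tsx. Exposed and vehicle arrays of the same number deviated together at E13 (r = 0.602 over probe sets). Taken by number there, the exposed array was higher at both for Sycp3, Tex101 and Tsx, 3 of 10 (28.7% of all tested), lower at both for Rhox9 b, 1 of 10 (26.7%), and of opposite sign for 6. Over the 10 probe sets, the interval bounds ran from -0.88 to 1.24 at E13, -0.84 to 1.48 at E14, -1.15 to 1.14 at E16, -0.95 to 1.72 in vinclozolin culture and -0.87 to 1.21 in flutamide culture. An F test of whether the vinclozolin effect differed between the stages passed for 0 of 10 (0% of all tested), with 0 at an unadjusted p under 0.05 (4.46% of all) and a lowest adjusted p of 0.984.

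**Figure D4:**
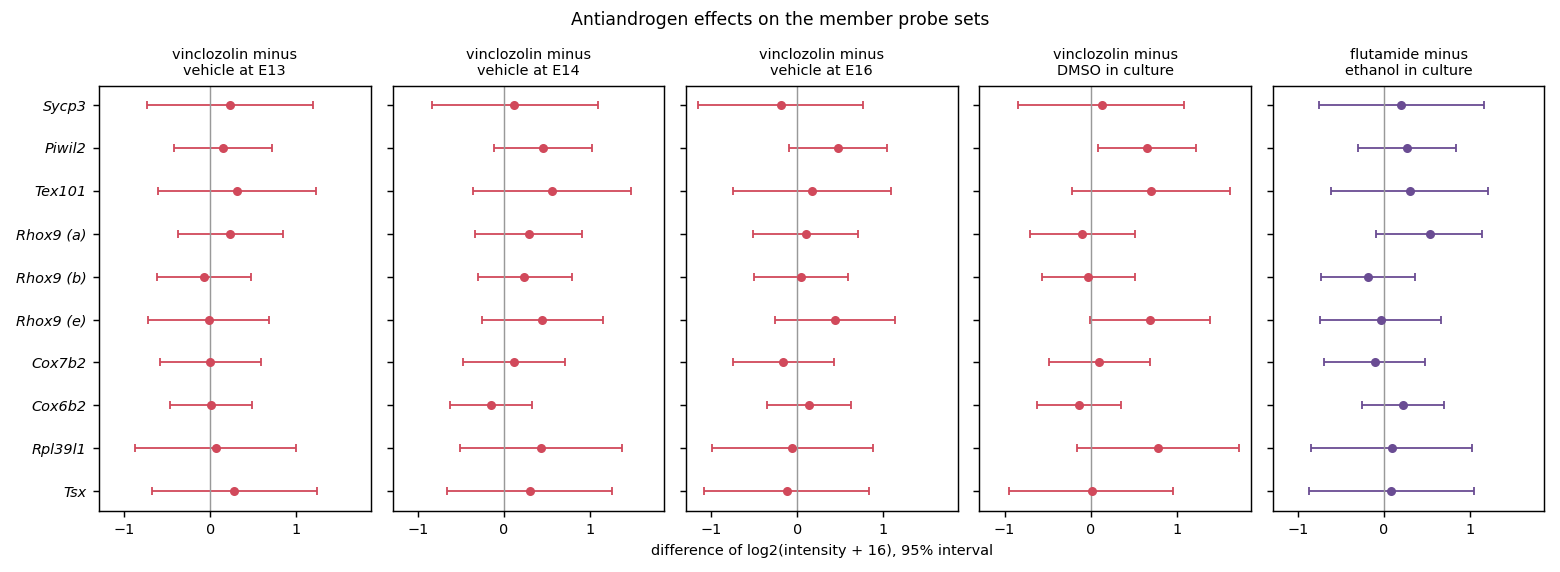
Difference of log2(intensity + 16) between antiandrogen and vehicle for the 10 tested member probe sets, with 95% intervals from the fit, in utero at E13, E14 and E16 and in culture (vinclozolin in red, flutamide in purple). The interval for Piwil2 in vinclozolin culture, 0.09 to 1.23, is the one that leaves out 0. Rhox9 a and b are also annotated to Rhox9l1, and e to Rhox9 alone.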

How the data were processed

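Total RNA of 20 embryonic rat testis samples was read on 1 oligonucleotide array each. Linear signal intensity was deposited. Per the submitters' processing notes the authors used MAS5 (and GCOS for the cultures), with versions not given in the sources used here. Trimmed means, with 2% left out at each end, were equal within an experiment (210.1 in utero, 218.1 and 107 in the vinclozolin and flutamide cultures). Raw image files were not used here.

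The 57 control probe sets of 31099 were left out. Values were taken as log2(intensity + 16). R 4.3.3 with limma 3.58.1 fitted a mean for each group over all 20 arrays, with a variance trend, two-sided tests and Benjamini-Hochberg adjustment over 22526 probe sets (threshold 0.05, 10 residual and 6.76 prior degrees of freedom). The number of arrays limits the precision: the median standard error was 0.244. The fit was tested on simulated data. The members, the gene lists and the tests were chosen with earlier results of these data known.

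Named were all member probe sets, up to 4 genes of smallest p per list, the counterparts Cox6b1, Cox7b and Rpl39, and, as levels, Amh, Cyp17a1, Xist and Eif2s3y. Gapdhs and Ldhc were named outside that rule, and Sycp1 was named after its values were seen. For each member the 3 genes of highest correlation were also taken. Lists gave each gene its probe set of highest mean. Symbols came from the platform annotation and places from RefSeq. Alternatives were quantile normalization, pseudocounts of 1 and 64, other filters, no trend, a replicate block, only the arrays of an experiment and leaving out each array. Leaving out both E13 arrays numbered 1, a crossed block and counting from the 40th percentile were added after seeing the data. Deviations of same-numbered arrays correlated at 0.602 at E13, where Amh and Xist also split by number in both groups, but at -0.0547, -0.112, 0.115 and -0.000125 in the other 4 pairs of groups, so the numbers were not taken to pair the samples.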

Additional observations from a re-analysis of the deposited data

How the results depend on the processing

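The direction of every called member difference was kept under every alternative run, and no member gained a call for an antiandrogen (lowest adjusted p 0.229, limma). Over 12 alternatives from E14 to E16 in exposed testes, Sycp3 gave 2.39 to 3.14 and Cox7b2 1.64 to 2.93. Rpl39l1 gave 1.78 to 2.22, Tsx 2.46 to 2.83 and Cox6b2, which lost its call in some, 0.63 to 1.02. These alternatives reuse arrays known when the genes were chosen, so they add no support for the rises. From E13 to E14 in exposed testes, 2 member probe sets passed, but 1 without the variance trend, 1 with the replicate block, 0 with only the in utero arrays, 0 without both E13 arrays numbered 1, and 0 to 2 when single arrays were left out. There a group left with 1 array was taken to vary as the rest do. Over all probe sets that step had 3641 calls and 663 to 4408 under the alternatives, and E14 to E16 had 6030 and 2791 to 6252. For vinclozolin the counts ran from 0 to 4 at E13, 0 to 272 at E14 (272 without the E14 vehicle array numbered 2) and 0 to 28 at E16. The replicate block, on numbers that were tied to array differences at E13 alone, left 0 member calls in each antiandrogen comparison, and a crossed pairing at E16 gave 0 calls over all probe sets. The vehicle median from E14 to E16, 0.79 over the member probe sets, ran from 0.45 to 1.27 when single arrays were left out. With all arrays rescaled to 1 trimmed mean, the ethanol culture lay below E13 for 1 member probe set, above E14 for 2 and below E16 for 6, in place of 3, 1 and 8. Of all tested probe sets, 28.1%, 40.6% and 27.1% did so after rescaling, and 34.4%, 36.3% and 34.5% by percentile. Piwil2 in ethanol culture went from below to above its E13 arrays, and from below to overlapping its E14 arrays. The cause of these shifts was not tested. At 2 arrays per group, and with Piwil2 and most Rhox9 probe sets near the 40th percentile, small differences could not be measured.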

Other observations

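For each member, the 3 genes most like it over the 12 in utero arrays were found by Pearson's r of log2 values among 16291 tested probe sets with 1 symbol. The arrays are 6 groups of 2 in 3 stages and share those stages, so r is a description and is given with no p. Sycp3 was followed by Stk17b (0.980), Afg2a (0.979) and G0s2 (0.972), and Cox7b2 by Svs5 (0.992), Slc25a31 (0.987) and Aspn (0.986). Rpl39l1 was followed by Xlr5c (0.976), Cstdc1 (0.975) and Rec114 (0.971), and Tsx by Sin3b (0.983), C1qtnf7 (0.982) and Nupr1 (0.976). Cox6b2 was followed by Igfbp7 (0.959), Ech1 (0.955) and Ankh (0.954). For Tex101 they were Defb24 (0.971), Emp1 (0.967) and Vnn1 (0.965), for Piwil2 Fbxo41 (0.959), Znf750 (0.935) and Grb14 (0.931), and for Rhox9 (the tested probe set annotated to it alone) Yars2 (0.954), Stag3 (0.942) and Cobll1 (0.941).

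Not every testis isoform on the array differed between E14 and E16. Gapdhs, the sperm glycolytic enzyme, gave 0.00 (SE 0.23, limma adjusted p = 0.998) and Hspa2 0.42 (SE 0.22, adjusted p = 0.178) in exposed testes. Ldhc, the testis lactate dehydrogenase, read 13.3 to 33.5 on the in utero arrays and did not pass the filter on low signal. In cultured testes Cyp17a1, the Leydig cell enzyme of androgen synthesis, lay at or above percentile 89.3 of the array with DMSO and at 95.3 and 94.9 with ethanol, against 18.4 and 25.4 at E13.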
